A study of Mus musculus with 6 samples.

Results

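The genes of antigen presentation by major histocompatibility complex (MHC) class I and class II molecules were examined in crypt cells of the mouse colon. The set held every gene whose name begins with H2- and a capital letter, together with 15 genes named one by one: Cd74, Ciita, B2m, Tap1, Tap2, Tapbp, Tapbpl, Nlrc5, Erap1, Cd1d1, Mr1, Fcgrt, Rfx5, Rfxap and Rfxank. It came to 60 of the 55487 genes in the count files, and pseudogenes stayed in. The mutant group was 3 mice of genotype M14(f/f);Villin-Cre, in which Cre recombinase under the Villin promoter, active in gut epithelium, removes the floxed part of the gene. The control group was 3 mice of genotype M14(f/f), which carry the same floxed alleles without Cre. Both groups were C57BL/6 mice aged 4 weeks, and 1 library of polyadenylated RNA was sequenced for each mouse. M14 is read here as Mettl14, a subunit of the enzyme complex that writes N6-methyladenosine on RNA. Only mutants carried Cre, so what Cre does by itself and what the loss of Mettl14 does cannot be told apart.

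Class I molecules pair a heavy chain with beta-2 microglobulin, carry peptides made in the cytosol and pumped into the endoplasmic reticulum, and show them to CD8 T cells. The classical heavy chains of the mouse come from H2-K1 and H2-D1, while the many nonclassical genes of the Q, T and M regions include ligands for receptors of natural killer cells and of intraepithelial lymphocytes. Class II molecules pair an alpha and a beta chain, carry peptides from endosomes and show them to CD4 T cells. Macrophages, dendritic cells and B cells make class II molecules constitutively, and intestinal epithelial cells make them under interferon gamma.

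Of the 60 genes, 41 had at least 10 counts in 3 or more libraries, and 40 passed the low-count filter and were tested. The gene that reached the count mark without being tested was H2-Ke6, which encodes a steroid dehydrogenase despite its name. The 19 genes under the mark held at most 15 counts in any library, and 5 of them had no count in any (H2-Pb, H2-Ea, H2-M10.2, H2-M10.3 and H2-M11). Levels are given as CPM, counts scaled to the size of the library. Where no read was counted, the level could still be as high as 0.0820 to 0.120 CPM, depending on the library (3 counts). C57BL/6 mice are known to carry a deletion in the H2-Ea promoter. The annotation types 11 of the 60 as pseudogenes.

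In mutants 6 of the 40 tested genes were higher and 13 were lower, and 21 did not pass (edgeR quasi-likelihood F test, Benjamini-Hochberg adjusted p under 0.05). Those called made up 47.5%, where 46.3% of all 18539 tested genes were called. Of all tested genes 23.5% were called higher and 22.8% lower. The median log2 fold change, mutant minus control, was -0.13 over the 40 genes and 0.01 over all tested genes. Levels in the mutant libraries lay wholly above those in the controls for 5 genes and wholly below for 15. Over all tested genes 56.9% were without overlap, 28.7% above and 28.2% below. Calls with over 2-fold change numbered 4 higher and 5 lower, against 10.5% and 6.05% of all tested genes.

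The higher calls were 4 class II genes (Cd74, H2-Aa, H2-Eb1 and H2-Ab1), the class I gene H2-M2 and the peptide transporter gene Tap2. The lower calls were 8 class I heavy chain genes of the Q and T regions, the class I-like genes Fcgrt and Cd1d1, B2m, the peptidase gene Erap1 and the class II chaperone gene H2-DMa. Among the lower heavy chain genes, H2-Q3 passed the low-count filter through the controls alone, so only a fall could have been called for it. None of the 3 genes of the classical group and none of the 5 regulators passed.

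**Figure D1:**
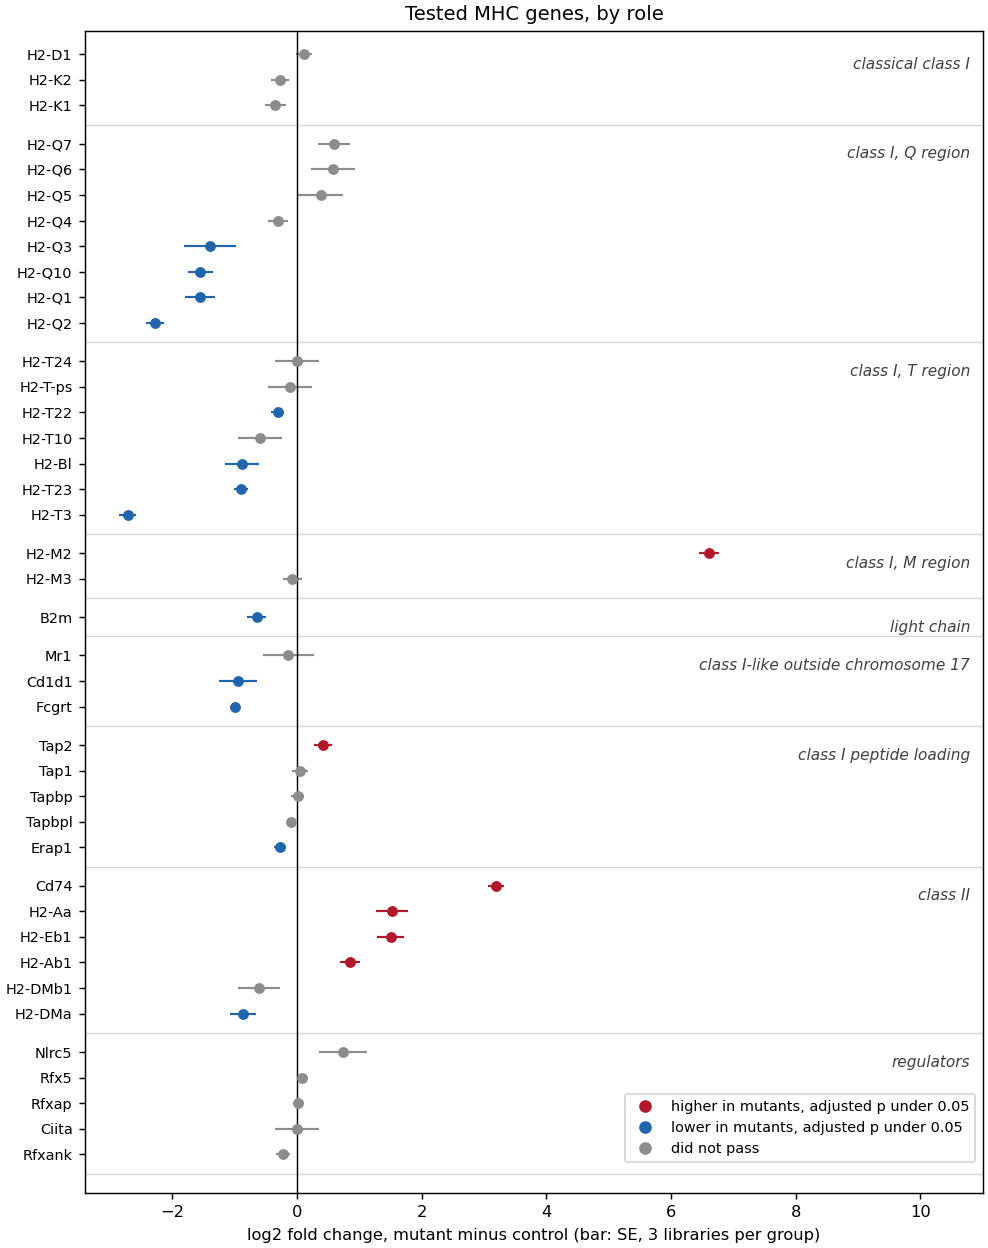
Log2 fold change (mutant minus control) of the 40 tested genes, grouped by role, with bars for the standard error. H2-M2 stands apart at 6.61, the class II chain genes and Cd74 lie to the right of 0, and H2-T3 and H2-Q2 lie farthest to the left at -2.72 and -2.28.

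The libraries held 26188638, 24181631 and 34842591 counts in mutants 1 to 3, and between 32165546 and 35183636 in controls. Mettl14, the targeted gene, stood at 14.0, 13.8 and 10.5 CPM in mutants, against 26.2, 20.9 and 22.04 CPM in controls (log2 fold change -0.85, SE 0.13, edgeR adjusted p = 6.22e-04). The labels do not give the deleted exons, and gene counts include its other exons and any cells in which Cre is not active. Xist, the transcript of the inactive X, had 16870, 1328 and 55 counts in mutants 1, 2 and 3 and 44 to 55 in controls. Ddx3y of the Y chromosome had 14, 949 and 1615 counts in mutants and 1774 to 1969 in controls. Mutant 2 held both transcripts and mutant 1 almost no Ddx3y. By these transcripts mutant 1 reads as female, and mutant 3 and all controls read as male. Sex was therefore not balanced between the groups, and with all libraries it cannot be fully told apart from genotype. Whether the library of mutant 2 holds RNA of more than 1 mouse was not tested. Results that change without mutants 1 and 2 are given below with their values. A row of ribosomal RNA took 12.9%, 7.44% and 5.16% of counts in mutants 1, 2 and 3 and 7.76% to 8.90% in controls. In bulk RNA, fewer cells of a type and less RNA per cell cannot be told apart.

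The promoters of 6 of the genes that the results turn on are printed here, since class I and class II genes are known for shared elements close to their start. Each is 300 bases, 250 before the RefSeq transcription start and 50 after it, from RefSeq on GRCm38.p6, 5′ to 3′ on the strand of the gene. The windows are H2-M2 (chr17:37483505-37483804, minus strand), H2-T3 (chr17:36190102-36190401, minus strand), H2-Q2 (chr17:35342057-35342356, plus strand), H2-Aa (chr17:34287774-34288073, minus strand), H2-Eb1 (chr17:34305617-34305916, plus strand) and H2-K1 (chr17:34000298-34000597, minus strand). Capitals mark matches to 5 motifs searched on both strands: the Y box core ATTGG, the X box, the NF-kB consensus, the interferon-stimulated element core GAAANNGAA and the gamma-activated site TTCNNNGAA. Matches may overlap one another.
H2-M2: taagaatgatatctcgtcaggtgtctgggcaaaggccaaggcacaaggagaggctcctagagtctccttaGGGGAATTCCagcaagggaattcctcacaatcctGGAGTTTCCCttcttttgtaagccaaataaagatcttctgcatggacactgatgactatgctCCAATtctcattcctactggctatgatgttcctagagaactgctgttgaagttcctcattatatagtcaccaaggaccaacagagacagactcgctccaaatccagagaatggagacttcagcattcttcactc
H2-T3: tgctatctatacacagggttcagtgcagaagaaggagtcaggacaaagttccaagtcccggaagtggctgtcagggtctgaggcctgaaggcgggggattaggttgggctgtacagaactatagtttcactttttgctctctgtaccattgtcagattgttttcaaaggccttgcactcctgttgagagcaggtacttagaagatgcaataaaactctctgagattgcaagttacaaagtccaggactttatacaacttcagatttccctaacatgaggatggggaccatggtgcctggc
H2-Q2: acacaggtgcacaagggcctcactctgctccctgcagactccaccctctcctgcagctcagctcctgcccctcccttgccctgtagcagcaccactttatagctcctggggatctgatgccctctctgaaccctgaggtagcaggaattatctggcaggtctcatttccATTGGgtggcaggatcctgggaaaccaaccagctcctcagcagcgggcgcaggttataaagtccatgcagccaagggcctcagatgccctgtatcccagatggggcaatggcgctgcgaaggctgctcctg
H2-Aa: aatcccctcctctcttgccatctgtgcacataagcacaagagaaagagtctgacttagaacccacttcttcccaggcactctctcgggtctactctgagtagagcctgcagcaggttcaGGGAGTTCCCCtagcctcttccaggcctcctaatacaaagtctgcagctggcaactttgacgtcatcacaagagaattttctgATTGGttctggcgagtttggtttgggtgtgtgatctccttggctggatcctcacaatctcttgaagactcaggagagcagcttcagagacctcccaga
H2-Eb1: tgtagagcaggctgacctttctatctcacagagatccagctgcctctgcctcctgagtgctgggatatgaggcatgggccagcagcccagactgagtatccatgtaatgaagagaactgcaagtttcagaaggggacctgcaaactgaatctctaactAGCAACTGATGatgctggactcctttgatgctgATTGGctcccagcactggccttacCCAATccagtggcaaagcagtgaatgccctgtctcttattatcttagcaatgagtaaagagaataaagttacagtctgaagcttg
H2-K1: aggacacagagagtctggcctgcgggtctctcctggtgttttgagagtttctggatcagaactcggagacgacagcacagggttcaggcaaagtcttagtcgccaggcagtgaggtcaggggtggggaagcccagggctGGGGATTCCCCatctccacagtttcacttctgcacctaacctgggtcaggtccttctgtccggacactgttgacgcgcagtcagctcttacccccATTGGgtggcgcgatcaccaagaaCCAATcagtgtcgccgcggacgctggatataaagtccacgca

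The H2-M2 window held 2 NF-kB matches that begin 180 and 146 bases before the start, and a Y box core at 84 bases. The H2-Aa window held a pair of overlapping NF-kB matches at 131 and 130 bases and a Y box core at 48. In H2-Eb1 the X box match began 92 bases before the start, with Y box cores at 59 and 35 bases. H2-K1 held overlapping NF-kB matches at 111 and 110 bases and a Y box core at 16 bases, with another after the start. The H2-Q2 window held a single Y box core, at 81 bases, and the H2-T3 window held no match to these letters. The RefSeq starts of H2-T3 and H2-Q2 lie 136 and 65 bases from the gene starts in the count files. Neither run of letters searched for the interferon motifs was in these 6 windows. Other spellings of interferon elements were not searched, so their absence from a window is not shown. Of 43 promoters that matched 40 of the genes by name, 36 held the Y box core, 4 the X box and 11 the NF-kB consensus. Among all 32851 RefSeq promoters of that length, 37.4%, 0.533% and 8.46% held them. The interferon-stimulated core as spelled here was in 4 of the 43 and the gamma-activated site in 3, against 8.56% and 8.30% of all promoters. A match is a run of letters and no evidence of binding.

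Levels between genes are compared per length, as CPM per kilobase of the exons in the count files. In mutants the highest of the set were B2m at 193, H2-D1 at 188 and H2-K1 at 178 CPM per kilobase, followed by H2-M2 at 68.4, Cd74 at 67.4 and Tapbp at 51.7. In controls they were B2m at 302, H2-K1 at 226 and H2-D1 at 174, followed by H2-Q2 at 53.8, Tapbp at 51.5, H2-T23 at 44.9 and H2-T3 at 25.8. In controls H2-M2 and Cd74 stood at 0.704 and 7.35 CPM per kilobase.

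H2-M2 (chr17:37480851-37483552 on GRCm38, minus strand), a nonclassical class I gene of the M region, had the largest change of the set. It stood at 105, 106 and 107 CPM in mutants, against 0.685, 1.37 and 1.23 CPM in controls. The mutant libraries lay within a narrow band far above every control. The log2 fold change was 6.61 (SE 0.16, edgeR adjusted p = 1.47e-08), a 97.1-fold ratio of the group means, and it held its call in each alternative run. Of the 50-base windows along its annotated transcripts 98.4% occur in no other gene's transcripts. The only other tested gene of the 14 in the M region was H2-M3, which presents formylated peptides. H2-M3 had 4.06, 4.12 and 4.29 CPM in mutants and 4.51, 4.45 and 4.19 CPM in controls (log2 fold change -0.08, adjusted p = 0.707), and the groups overlapped.

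**Figure D2:**
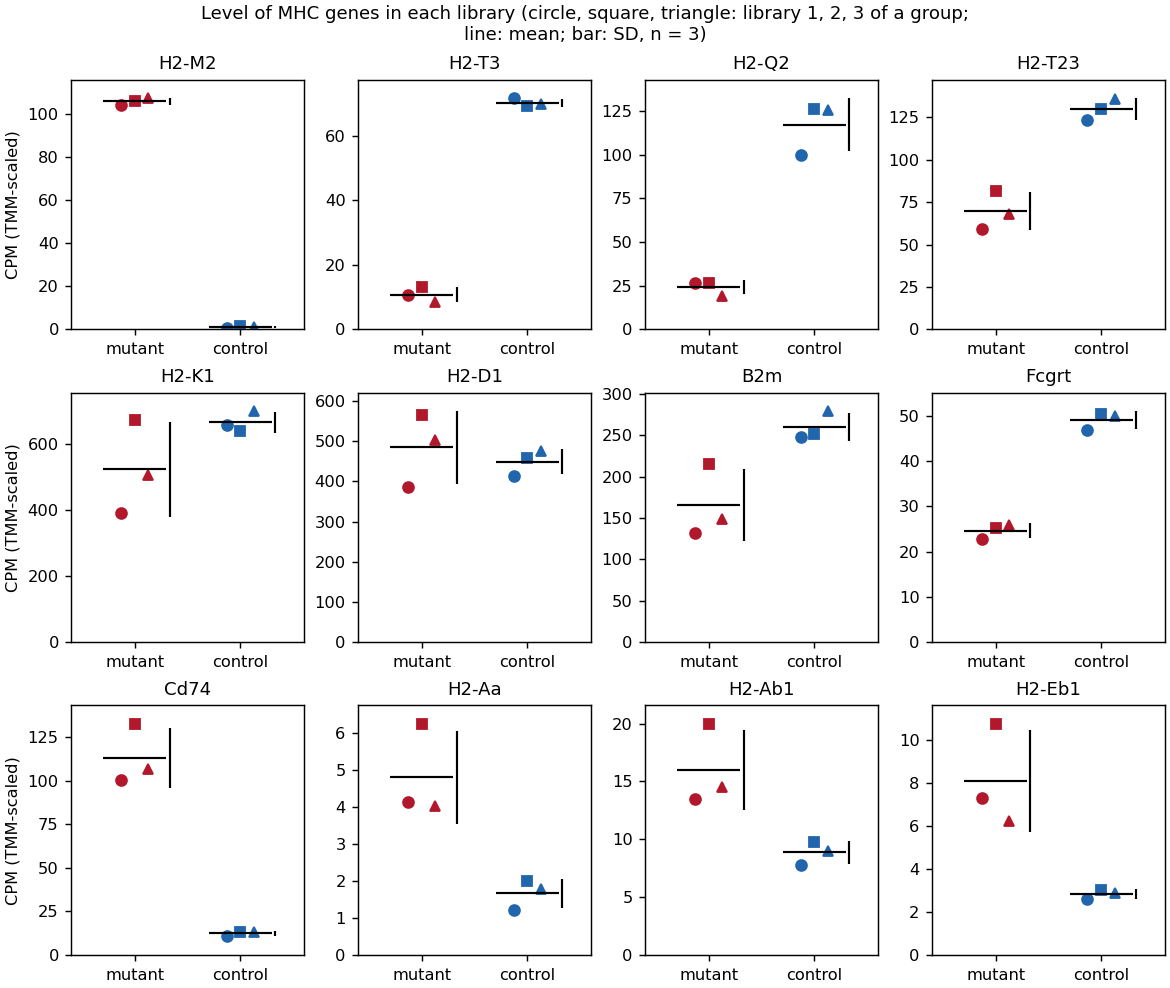
Level in CPM (vertical axes from 0) of 12 MHC genes in each of the 3 mutant and 3 control libraries, with the mean as a line and the SD as a bar. Groups are separate for every gene shown except H2-K1 and H2-D1, where mutant 2, the square, reaches 674 and 564 CPM.

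Class I genes of the T region fell or did not pass, with 4 of 7 lower and none higher. That is 57.1% called, where 46.3% of all tested genes were called, 23.5% higher and 22.8% lower. H2-T3 (chr17:36185572-36190287, minus strand) encodes the thymus leukemia antigen, which is known from mouse intestinal epithelium as a ligand of the CD8 alpha homodimer on intraepithelial lymphocytes. It stood at 10.6, 13.1 and 8.59 CPM in mutants, against 71.7, 69.3 and 70.0 CPM in controls. The groups were far apart, and H2-T3 fell by 2.72 on the log2 scale (SE 0.13, edgeR adjusted p = 5.53e-07), a factor of 6.54 between the means. Its transcripts are 99.1% unique over 50-base windows.

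H2-T23 (chr17:36029773-36032855, minus strand) encodes Qa-1, the ligand of the inhibitory receptor CD94/NKG2A. It had 59.4, 81.7 and 68.3 CPM in mutants, against 123, 130.1 and 136 CPM in controls, and the groups did not overlap. H2-T23 fell by 0.90 on the log2 scale (SE 0.11, adjusted p = 1.44e-04). H2-T22, whose product is a ligand of some gamma delta T cells, had 12.4, 16.1 and 14.5 CPM in mutants, against 18.0, 17.4 and 17.9 CPM in controls. The groups were separate by a small margin, with a log2 fold change of -0.31 (adjusted p = 0.0376). The H2-T22 call was lost without any 1 library other than mutant 2 (adjusted p between 0.0624 and 0.0973), and only 46.5% of its windows are unique, so reads from the other windows may be missing from its counts.

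H2-Bl, typed as a pseudogene, had 1.31, 1.56 and 0.875 CPM in mutants, against 2.65, 2.11 and 2.06 CPM in controls. The groups were separate and the log2 fold change was -0.88 (adjusted p = 0.0220), although adjusted p was 0.0815 without mutant 3 and 0.0726 without control 1. Without mutants 1 and 2 its log2 fold change was -1.40. The other 3 tested genes of the region, H2-T10, H2-T24 and H2-T-ps, stood at 1.66 CPM or less on average in either group and did not pass.

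Among the 8 genes of the Q region 4 were lower, none was higher and 4 did not pass. That is 50% called, where 46.3% of all tested genes were called, 23.5% higher and 22.8% lower. H2-Q2 (chr17:35342242-35346762, plus strand) stood at 26.6, 26.7 and 19.3 CPM in mutants, against 99.9, 126 and 126 CPM in controls. No mutant came near a control, and H2-Q2 fell by 2.28 on the log2 scale (SE 0.14, adjusted p = 2.49e-06), a factor of 4.84. H2-Q1, its neighbour, had 6.11, 8.12 and 6.89 CPM in mutants, against 13.0, 27.6 and 21.6 CPM in controls. The controls were spread but all lay above the mutants (log2 fold change -1.56, SE 0.24, adjusted p = 6.15e-04).

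H2-Q10, known from mouse liver as the source of a secreted class I molecule, had 2.44, 2.96 and 1.78 CPM in mutants, against 6.56, 7.75 and 6.55 CPM in controls. The groups were separate, and H2-Q10 fell by 1.55 on the log2 scale (SE 0.21, adjusted p = 2.37e-04). The pseudogene H2-Q3 lay near the floor, at 0.193, 0.240 and 0.191 CPM in mutants, against 0.514, 0.742 and 0.387 CPM in controls (log2 fold change -1.39, adjusted p = 0.0201). H2-Q3 held 5, 6 and 7 counts in mutants 1 to 3 and 18, 25 and 12 in controls 1 to 3. It passed the low-count filter through the controls alone, so only a fall could have been called. Leaving out mutant 1, mutant 3 or control 2 took H2-Q3 past the threshold, at adjusted p of 0.0521, 0.0753 and 0.0886.

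The remaining Q genes with appreciable levels were spread among the mutants. H2-Q4 had 23.6, 32.6 and 19.4 CPM in mutants, against 30.8, 31.3 and 30.8 CPM in controls, and mutant 2 lay above all controls (log2 fold change -0.30, adjusted p = 0.142). Without mutant 2 H2-Q4 was called lower at -0.53 (adjusted p = 0.00390), without mutants 1 and 2 also at -0.70, whereas without mutant 3 its value was -0.14 with no call. H2-Q6 and H2-Q7 encode forms of the Qa-2 antigen. H2-Q6 had 5.64, 8.12 and 2.54 CPM in mutants, against 2.94, 3.98 and 3.97 CPM in controls, so mutant 3 was the lowest of all 6 libraries and mutant 2 the highest. The log2 fold change was 0.57 (adjusted p = 0.215), but 0.93 and called without mutant 3 (adjusted p = 0.0112), 0.15 without mutant 2 and -0.54 without mutants 1 and 2. H2-Q7 had 4.72, 7.08 and 3.83 CPM in mutants, against 2.596, 3.83 and 3.94 CPM in controls, with overlap (log2 fold change 0.59, adjusted p = 0.0888). It too was called without mutant 3, at 0.78 (adjusted p = 0.0392), and stood at 0.30 without mutant 2 and 0.12 without mutants 1 and 2. Unique windows made up 63.6% of H2-Q4, 65.0% of H2-Q6 and 73.6% of H2-Q7 transcripts, against 83.9% of H2-Q2 and 85.0% of H2-Q1. Reads lying in several genes were not counted, so levels within this family are uncertain.

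**Figure D3:**
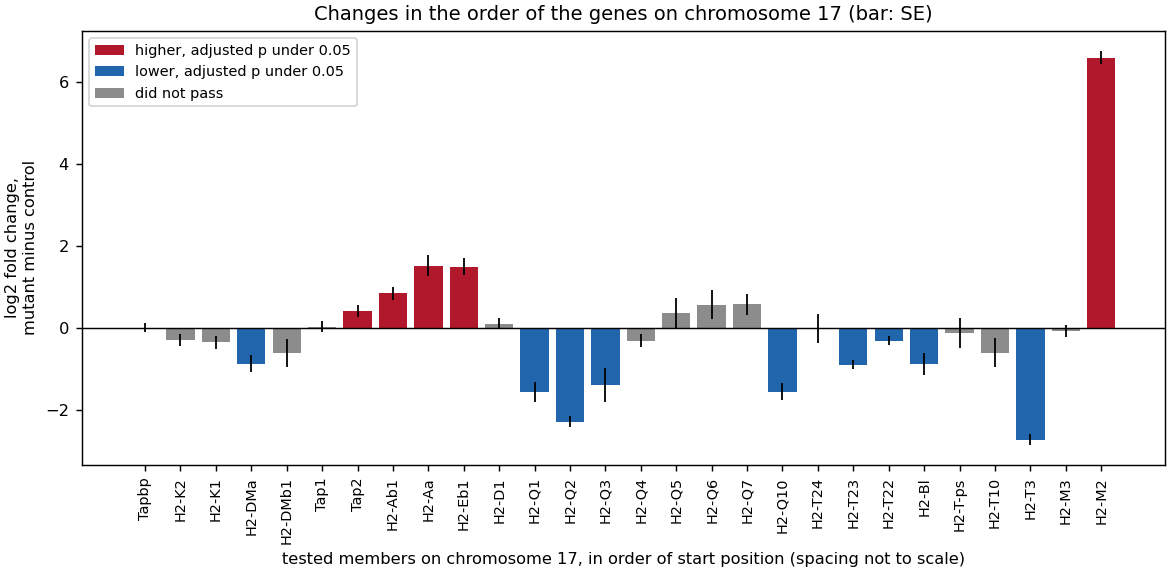
Log2 fold change (mutant minus control, bar: SE) of the tested genes on chromosome 17 in the order of their starts, with equal spacing. H2-Q1, H2-Q2 and H2-Q3 lie side by side at -1.56, -2.28 and -1.39, H2-Q6 and H2-Q7 between them and H2-Q10 at 0.57 and 0.59, and H2-M2 at the far end at 6.61.

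The classical heavy chains held the bulk of class I counts, and neither passed. H2-K1 (chr17:33996017-34000347, minus strand) had 389.5, 674 and 505 CPM in mutants, against 658, 639 and 699 CPM in controls. Mutants 1 and 3 lay below all controls and mutant 2 among them, which gave H2-K1 a value of -0.35 on the log2 scale (SE 0.17, adjusted p = 0.113). Without mutant 2 H2-K1 was called lower at -0.58 (adjusted p = 0.00669), without mutants 1 and 2 at -0.43 (adjusted p = 0.0177), and without mutant 1 it stood at -0.19 with no call. H2-D1 (chr17:35262730-35267499, plus strand) had 386, 564 and 502 CPM in mutants, against 414, 458 and 474 CPM in controls, which overlap (log2 fold change 0.11, SE 0.13, adjusted p = 0.524). H2-K2, a pseudogene beside H2-K1, had 14.2, 21.4 and 18.4 CPM in mutants, against 19.8, 20.8 and 24.9 CPM in controls (log2 fold change -0.28, adjusted p = 0.147). It was called lower without mutant 2, at -0.42 (adjusted p = 0.0470).

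The counts of H2-K1, H2-D1 and all H2-Q genes were also summed within each library, although reads that were not counted for matching several genes are missing from the sum too. The summed class I counts stood at 846, 1324 and 1062 CPM in mutants, against 1228, 1299 and 1367 CPM in controls, and mutant 2 lay within the controls. The log2 difference was -0.29 (exact permutation test, 2-sided, p = 0.3, where 3 against 3 cannot go below 0.1), and -0.46 without mutant 2 against -0.14 without mutant 1. With only H2-K1 and H2-D1 summed the log2 difference was -0.17 (exact p = 0.5), with -0.34 without mutant 2 and -0.0072 without mutant 1. Without mutants 1 and 2 the wider sum stood at -0.32 and the narrower sum at -0.17.

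Mutant 2 was the highest of the 3 mutants for 30 of the 40 tested genes, or 75%, and for 16 of the 20 tested class I heavy chains of chromosome 17. Over all tested genes it was the highest mutant for 31.9%. Nlrc5, the transactivator of class I genes, followed the same order, with 3.63, 12.0 and 4.68 CPM in mutants, against 3.71, 3.77 and 4.61 CPM in controls. Mutant 2 alone stood far above the rest (log2 fold change 0.74, adjusted p = 0.144). The value for Nlrc5 was 0.05 without mutant 2, 0.19 without mutants 1 and 2, and 1.02 with a call without mutant 1 (adjusted p = 0.0352). Without mutants 1 and 2 the calls of Cd1d1, Erap1, H2-Q3 and H2-T22, described with their groups, were lost (adjusted p of 0.0757, 0.332, 0.128 and 0.0819). Their log2 fold changes were then -0.96 for Cd1d1, -0.14 for Erap1, -1.53 for H2-Q3 and -0.32 for H2-T22, so that of Erap1 lay well nearer 0 than with all libraries (-0.27).

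B2m (chr2:122147686-122153083, plus strand), the light chain of all class I molecules, had 132, 216 and 149 CPM in mutants, against 248, 252 and 279 CPM in controls. Every mutant lay below every control, and B2m fell by 0.65 on the log2 scale (SE 0.16, adjusted p = 0.00750). Fcgrt (chr7:45092990-45103851, minus strand) encodes the heavy chain of the neonatal Fc receptor, which pairs with the same light chain and moves IgG across epithelia. It had 22.7, 25.2 and 25.9 CPM in mutants, against 46.9, 50.4 and 49.9 CPM in controls. The groups were tight and separate, and Fcgrt fell by 0.995 on the log2 scale (SE 0.08, adjusted p = 9.16e-06). Cd1d1, which presents lipids to natural killer T cells, had 0.541, 1.28 and 0.930 CPM in mutants, against 1.74, 1.90 and 1.68 CPM in controls. Its groups did not overlap (log2 fold change -0.95, adjusted p = 0.0292), but the call was lost without any 1 library other than mutant 2, with adjusted p between 0.0528 and 0.0748. Mr1, which presents vitamin B metabolites, stood at 0.423 ± 0.137 CPM in mutants and 0.461 ± 0.168 CPM in controls (SD, n = 3 each; log2 fold change -0.14, edgeR adjusted p = 0.801).

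Among the 5 peptide loading genes 1 was higher, 1 was lower and 3 did not pass, or 40% called against 46.3% of all tested genes. Tap1 and Tap2 encode the partner chains of the peptide transporter of the endoplasmic reticulum. Tap2 had 32.3, 52.1 and 41.7 CPM in mutants, against 32.4, 29.7 and 32.4 CPM in controls, and mutant 1 lay among the controls. Its log2 fold change of 0.42 passed narrowly (adjusted p = 0.0397) and lost the call without any 1 library other than mutant 1 (adjusted p between 0.0813 and 0.150), with 0.23 as its value without mutant 2. Tap1 had 26.9, 38.1 and 29.2 CPM in mutants, against 33.4, 27.6 and 30.5 CPM in controls (log2 fold change 0.04, adjusted p = 0.818), with overlap.

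Tapbp, or tapasin, bridges the transporter and the heavy chain. It had 157, 206 and 200.1 CPM in mutants, against 169, 199 and 193 CPM in controls (log2 fold change 0.01, adjusted p = 0.965). Its relative Tapbpl, a peptide editor, had 29.3, 29.5 and 30.4 CPM in mutants, against 32.4, 31.3 and 31.6 CPM in controls (log2 fold change -0.10, adjusted p = 0.263); every mutant lay below the controls by a small margin. Erap1, which trims peptides in the endoplasmic reticulum, had 89.7, 100.1 and 113 CPM in mutants, against 115, 129.7 and 121 CPM in controls. The ranges met closely without overlap, with a log2 fold change of -0.27 (adjusted p = 0.0396). The Erap1 call was lost without mutant 1, mutant 2, control 2 or control 3 (adjusted p between 0.0759 and 0.106).

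The class II side moved in both directions. Cd74 (chr18:60803848-60812652, plus strand) encodes the invariant chain, which occupies the class II groove until endosomal proteases remove it. It had 100.2, 133 and 107 CPM in mutants, against 10.7, 13.4 and 12.9 CPM in controls. All mutants lay far above all controls, and Cd74 rose by 3.20 on the log2 scale (SE 0.13, adjusted p = 1.79e-07), a 9.17-fold ratio of means.

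H2-Aa (chr17:34282744-34287823, minus strand), the alpha chain of the I-A molecule, had 4.14, 6.24 and 4.02 CPM in mutants, against 1.23, 1.99 and 1.77 CPM in controls. H2-Ab1 (chr17:34257689-34269419, plus strand), its beta chain, had 13.5, 20.0 and 14.5 CPM in mutants, against 7.82, 9.79 and 8.97 CPM in controls. H2-Eb1 (chr17:34305867-34316674, plus strand), the beta chain of I-E, had 7.31, 10.8 and 6.23 CPM in mutants, against 2.596, 3.03 and 2.90 CPM in controls. For each of these chains the groups were separate and mutant 2 was the highest library. Their log2 fold changes were 1.52 for H2-Aa (SE 0.26, adjusted p = 9.82e-04), 0.85 for H2-Ab1 (SE 0.16, adjusted p = 0.00187) and 1.51 for H2-Eb1 (SE 0.22, adjusted p = 4.01e-04). H2-Ea, which encodes the partner of H2-Eb1, had no count in any library.

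Cd74 rose further than the chains it accompanies. The ratio of Cd74 counts to the summed counts of H2-Aa, H2-Ab1 and H2-Eb1 within a library was 4.03, 3.59 and 4.30 in mutants, against 0.919, 0.904 and 0.948 in controls. These ranges were far apart, with a log2 difference of 2.10 (exact permutation test, 2-sided, p = 0.1, the smallest that 3 against 3 allows). Against single chains the log2 difference was 1.67 for H2-Aa, 2.36 for H2-Ab1 and 1.72 for H2-Eb1, each with exact p = 0.1. The 3 chains together stood at 24.9, 37.0 and 24.8 CPM in mutants, against 11.6, 14.8 and 13.6 CPM in controls (log2 difference 1.09, exact p = 0.1).

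H2-DMa and H2-DMb1 encode the chains of H2-M, the chaperone that exchanges the invariant chain fragment for peptide. H2-DMa had 1.47, 1.64 and 1.31 CPM in mutants, against 2.94, 2.52 and 2.55 CPM in controls. It lay lower in every mutant (log2 fold change -0.86, SE 0.21, adjusted p = 0.00738), opposite to the class II chains. H2-DMb1 had 0.464, 0.720 and 0.574 CPM in mutants, against 0.628, 1.16 and 0.903 CPM in controls, with overlap (log2 fold change -0.61, adjusted p = 0.174). H2-DMa overlaps Brd2 on the opposite strand, which averaged 177 CPM in mutants and 216 CPM in controls; counting was by strand, per the file headers.

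The regulators of these genes did not pass. Ciita, the master activator of class II genes, had 1.28, 1.72 and 0.957 CPM in mutants, against 0.827, 1.87 and 1.23 CPM in controls, and the groups overlapped (log2 fold change 0.00, SE 0.35, adjusted p = 0.995). Rfx5, Rfxap and Rfxank encode the complex that binds the X box. Rfx5 had 17.9, 19.2 and 16.5 CPM in mutants, against 16.8, 16.1 and 17.6 CPM in controls (log2 fold change 0.09, adjusted p = 0.476). Rfxap had 23.2, 22.2 and 25.6 CPM in mutants, against 22.3, 23.4 and 24.4 CPM in controls (log2 fold change 0.02, adjusted p = 0.846). Rfxank had 15.6, 19.1 and 20.5 CPM in mutants, against 23.3, 20.1 and 21.3 CPM in controls (log2 fold change -0.23, adjusted p = 0.127). All of these groups overlapped.

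Many but not all markers of leukocytes, only some of which carry class II molecules, moved with the class II genes. Their part in those values was not tested, and over all tested genes 46.3% were called. Of 12 macrophage markers 10 rose and 2 fell, and the list summed to 79.5 to 108 CPM in mutants and 49.4 to 58.3 CPM in controls. Among the rises, Fcgr1 passed the low-count filter through the mutants alone, so no fall could have been called for it. Csf1r, the macrophage growth factor receptor, had 7.31, 12.1 and 10.6 CPM in mutants, against 2.28, 2.20 and 2.06 CPM in controls (log2 fold change 2.19, edgeR adjusted p = 2.83e-05). Lyz2, a lysozyme of myeloid cells, and Cd14, a lipopolysaccharide coreceptor, rose by 2.16 and 0.88 on the log2 scale. C1qa, a complement subunit, was among those that fell, at a log2 fold change of -1.43. The partner subunits of C1qa, C1qb and C1qc rose by 1.75 and 1.98.

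Of 10 dendritic cell markers 5 were tested, 3 of which rose and 1 fell. The rises were Zbtb46, Flt3 and Itgax, at log2 fold changes of 2.82, 2.87 and 2.49, and the fall was Cd83 at -0.90. Flt3 had 4, 2 and 6 counts in controls 1 to 3. It passed the low-count filter through the mutants alone, so only a rise could have been called. The list summed to 13.8 to 17.2 CPM in mutants and 10.8 to 12.5 CPM in controls. B cell markers summed to 2.36 to 3.25 CPM in mutants and 1.34 to 3.03 CPM in controls, with overlap, and only 2 of 10 were tested. Pax5 rose by 1.73 on the log2 scale, and Ms4a1 stood at 0.749 ± 0.275 CPM in mutants and 0.424 ± 0.0957 CPM in controls (SD, n = 3 each; edgeR adjusted p = 0.0925). Pan-leukocyte markers summed to 45.3 to 55.1 CPM in mutants and 16.6 to 18.5 CPM in controls, with 5 of 6 higher (Rac2, Coro1a and Laptm5 at 2.94, 1.67 and 1.38 on the log2 scale). Rac2 alone averaged 21.4 CPM in mutants and 2.79 CPM in controls. Ptprc did not pass, at 9.32, 12.8 and 8.23 CPM in mutants, against 7.42, 8.93 and 8.91 CPM in controls. Its groups overlapped (log2 fold change 0.26, edgeR adjusted p = 0.246). No marker in these lists was at 0 in all 6 libraries. For comparison, Cd74 changed by 3.20 and H2-Ab1 by 0.85 on the same scale.

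**Figure D4:**
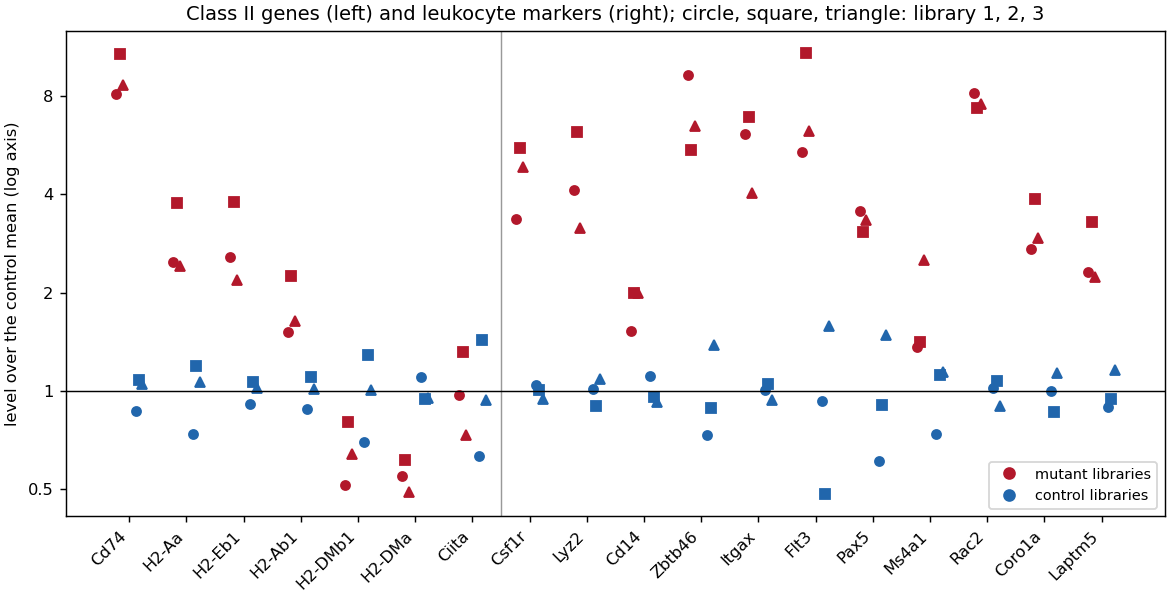
Level of 7 class II pathway genes (left) and 11 leukocyte markers (right) in each library, divided by the control mean of the gene, on a log axis. Circles, squares and triangles are libraries 1, 2 and 3 of a group. The markers shown are the tested genes with the smallest p in their lists. The mutant points of Cd74, Flt3, Rac2 and Zbtb46 overlap in height, while mutants of H2-DMa lie below the controls and those of Ciita among them. Flt3 had only 4, 2 and 6 counts in controls 1 to 3, so its height over the control mean is uncertain.

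Markers of other cell types moved as well, where 46.3% of all tested genes were called. Of 11 tested T and NK cell markers 2 rose, Cd8b1 and Cd4 (log2 fold changes 3.52 and 2.37). Cd3e stood at 1.09 ± 0.240 CPM in mutants and 0.760 ± 0.0456 CPM in controls (SD, n = 3 each, edgeR adjusted p = 0.163). In controls 1 to 3 Cd8b1 had 1, 5 and 4 counts and Cd4 had 9, 3 and 9. Cd8b1 and Cd4 passed the low-count filter through the mutants alone, so only a rise could have been called. Without mutants 1 and 2 both lost their calls (log2 fold change 1.81 and adjusted p = 0.0693 for Cd4, 2.37 and 0.0587 for Cd8b1), as did Tnfrsf17 (2.11, adjusted p = 0.0704). The list summed to 10.8 to 14.9 CPM in mutants and 7.99 to 13.3 CPM in controls. Of 6 plasma cell markers 2 were tested and rose, Sdc1 and Tnfrsf17, and Sdc1, which is also made by epithelium, took nearly all of their sum (243 to 279.8 CPM in mutants and 156 to 165 CPM in controls). Tnfrsf17 lost its call without mutant 3 (adjusted p = 0.0783). With 7, 8 and 1 counts in controls 1 to 3, it too passed the low-count filter through the mutants alone. Fibroblast and endothelial markers summed to 96.4 to 115 CPM in mutants and 203 to 235 CPM in controls, and of 10 markers 4 fell and 1 rose. The falls were the fibroblast markers Col1a1, Col3a1, Col1a2 and Dcn, at -1.34, -1.29, -1.19 and -0.64 on the log2 scale. Pecam1, an endothelial marker, rose by 0.95 (edgeR adjusted p = 0.00106). Lum, Pdgfra and the endothelial markers Cdh5, Kdr and Tek did not pass. Colon epithelial markers, a list not specific to crypts, summed to 21381 to 22913 CPM in mutants and 34169 to 38025 CPM in controls. Of those 13, 7 fell and 1 rose, and Car1, Slc26a3 and Muc2 changed by -1.43, -1.57 and -1.16 on the log2 scale. Muc2 averaged 6296 CPM in mutants and 14083 CPM in controls, and Car1 2076 and 5613 CPM, so both weighed heavily on the sum. The rise was Cdh1 at 0.24 (edgeR adjusted p = 0.0428), and Krt18, Krt19, Cdx1, Cdx2 and Lgals4 did not pass. The part of these shifts in the lower class I values was not tested.

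Genes that feed the class I pathway were counted by list, where 46.3% of all tested genes were called. The immunoproteasome list held subunits that cut peptides for class I molecules and proteasome activators. In it 4 of 6 genes fell and none rose (median log2 fold change -0.50). The subunit gene Psmb8 and the activator gene Psme3 did not pass (edgeR adjusted p = 0.0642 and 0.294). Psmb10, a catalytic subunit, had 37.3, 51.7 and 50.7 CPM in mutants, against 81.7, 74.8 and 71.2 CPM in controls (log2 fold change -0.70, edgeR adjusted p = 0.00106). The proteasome activator genes Psme1 and Psme2 fell by 0.42 and 0.41 on the log2 scale. Among 7 chaperones of peptide loading and folding 4 rose and 1 fell (median 0.23). Hspa5, the chief heat shock chaperone of the endoplasmic reticulum, had 1516, 1394 and 1702 CPM in mutants, against 693, 768 and 739 CPM in controls (log2 fold change 1.07, adjusted p = 2.72e-05). Pdia3, a disulfide isomerase of the loading complex, rose by 0.41, and Canx, a lectin chaperone, fell by 0.27 and lost its call without mutant 2, mutant 3, control 2 or control 3 (adjusted p between 0.0795 and 0.103). Of 7 peptidases 3 fell and none rose (median -0.12). Lnpep, an endosomal aminopeptidase, fell by 0.92, and Lap3 and Npepps by 0.28 and 0.20. Lap3 was no longer called without mutant 3 (adjusted p = 0.0590), nor was Npepps without any 1 library other than mutant 2 (adjusted p between 0.0630 and 0.0808).

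Of 12 genes of class II processing 2 rose and 4 fell (median -0.22), or 50% called, near the 46.3% of all tested genes. Among the rises, Marchf1 passed the low-count filter through the mutants alone, so no fall could have been called for it. Ctsh, a lysosomal cysteine protease, had 103, 142 and 133 CPM in mutants, against 48.6, 41.4 and 49.4 CPM in controls (log2 fold change 1.44, adjusted p = 1.72e-05). Sppl2a, the membrane protease that clears the last fragment of Cd74, fell by 0.75, and Marchf8, a ligase that marks class II molecules for degradation, by 0.50. Ctss, which trims the invariant chain, had 104, 177 and 139.7 CPM in mutants, against 232, 230.4 and 250.2 CPM in controls, with no overlap (log2 fold change -0.76, adjusted p = 0.00337).

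Of 10 transcription factors and cofactors of class I and class II genes 1 rose and 4 fell (median -0.13). That is 50% called, near the 46.3% of all tested genes. Nfya, a subunit of the factor that binds the Y box, rose by 0.45 on the log2 scale, and Irf2 and Irf8, factors of the interferon response, fell by 0.57 and 0.63. Irf1, which carries the interferon gamma signal to the Ciita and class I promoters, fell by 0.48 (adjusted p = 0.00485). Within interferon gamma signalling 3 of 10 tested genes rose and 2 fell (median -0.02), also 50% called. Socs1, a feedback inhibitor, had 9.62, 8.52 and 8.78 CPM in mutants, against 1.65, 1.48 and 1.39 CPM in controls (log2 fold change 2.57, adjusted p = 2.72e-06). Socs3, a related inhibitor, rose by 1.21, and the receptor chain Ifngr1 by 0.45. Ifng itself was not tested, with a mean of 0.00912 CPM in mutants and no count in controls.

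**Figure D5:**
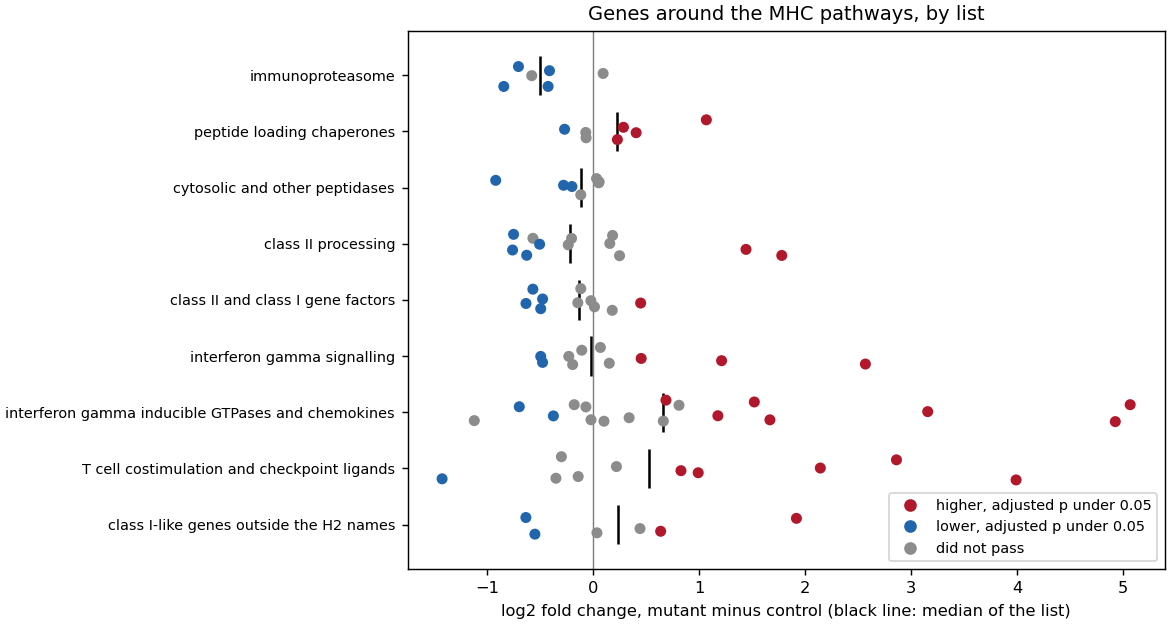
Log2 fold change (mutant minus control, horizontal axis) of each tested gene in 9 lists around the MHC pathways, with a black line at the median of a list. The immunoproteasome genes lie left of or close to 0 (median -0.50), and the spread is widest among the interferon gamma inducible genes, where Gbp4 reaches 5.06.

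Of 17 interferon gamma inducible GTPases and chemokines 7 rose, 2 fell and 8 did not pass (median 0.66). Called genes made up 52.9%, against 46.3% of all tested genes. Gbp8, a guanylate-binding protein, had 24.0, 40.0 and 35.9 CPM in mutants, against 0.999, 1.13 and 1.16 CPM in controls (log2 fold change 4.92, adjusted p = 3.02e-07). Gbp4 and Gbp9 rose by 5.06 and 3.15. These 3 genes are close relatives annotated over one another on the same strand, and their single values are uncertain. Among 10 tested ligands of T cell costimulation and checkpoints 5 rose and 1 fell (median 0.52), or 60% called. Of the rises, Cd80, Cd86 and Cd40 passed the low-count filter through the mutants alone, so no fall could have been called for them. Cd86, a ligand of CD28, had 1.12, 1.16 and 1.29 CPM in mutants, against 0.0856, 0.237 and 0.161 CPM in controls, and rose by 2.86 on the log2 scale (adjusted p = 2.70e-04). Cd80, its relative, stood at 0.537 ± 0.0302 CPM in mutants and 0.0302 ± 0.00191 CPM in controls (SD, n = 3 each), with controls under the floor of 3 counts and a fitted log2 value of 3.99, and Tnfrsf14, a ligand of the inhibitory receptor BTLA, fell by 1.42.

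Class I-like genes outside the H2 names included stress-induced ligands of the receptor NKG2D. Of 6 tested 2 rose and 2 fell (median 0.24), or 66.7% called against 46.3% of all tested genes. H60c, one of those ligands, had 2.78, 3.76 and 6.04 CPM in mutants, against 1.80, 0.445 and 1.10 CPM in controls (log2 fold change 1.92, adjusted p = 0.00575). Mill2 rose by 0.64 on the log2 scale. Raet1e, another NKG2D ligand, fell by 0.55, a call that was lost without mutant 3 or any 1 control (adjusted p between 0.0648 and 0.114).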

How the data were processed

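Colonic crypt RNA from 3 mutant and 3 control mice was sequenced, and the authors deposited raw counts per gene, 1 file per library. The submitters' processing notes name Trim Galore 0.6.5, STAR 2.6.1d and the GRCm38 build. Counting used featureCounts 1.6.4 on GENCODE vM25, by strand of read 1 and without reads of several alignments or several genes, per the file headers, which can lose reads of near-identical MHC genes. Library preparation used bead-selected polyadenylated RNA and a SMARTer stranded kit, per the labels' protocols.

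The test was that of edgeR 4.0.16 in R 4.3.3 (filterByExpr, minimum count 10 and minimum total 15, TMM scaling, quasi-likelihood F test, genotype as the only term). The Benjamini-Hochberg adjustment of the 2-sided p-values ran over 18539 genes, and the threshold was 0.05. CPM values are TMM-scaled. The members and the lists were chosen with earlier results of these data known. Each marked member with a mean of at least 5 CPM in 1 group or a call is given in every library, and up to 3 genes with the smallest p from each list are named. Outside that rule H2-M3, H2-DMb1, Mr1, Ciita, C1qa, C1qb, C1qc, Fcgr1, Cd83, Cd40, Ctss, Marchf1, Irf1 and Ifng were named after their values were seen. So were Ptprc, Cdh1, Pecam1, Dcn, Psmb8, Psme3 and the uncalled markers of fibroblasts, endothelium and colon epithelium. The counts of each list carry no test, and the background share is 46.3% of all tested genes. DESeq2 1.42.0, limma-voom from limma 3.58.1, other scalings and filters, a null of 1.5-fold and libraries left out were alternatives.

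The floor of 3 counts covers counting error only, as PCR reads without molecular identifiers are not independent molecules. Libraries of 1 group differed beyond counting noise (chi-square per gene 13.2 to 90.4), so none was taken for a repeat. Mice came in pairs, per the series design text, yet the labels pair no mutant with a control. Motifs and 50-base windows came from RefSeq promoters and GENCODE vM21 transcripts, both on GRCm38. Sequences of the H2-Ab1 and Cd74 promoters were not used here.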

Additional observations from a re-analysis of the deposited data

How the results depend on the processing

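The call of H2-M2, Cd74, H2-Aa, H2-Eb1, H2-T3, H2-Q1, H2-Q2, H2-Q10, H2-T23 and Fcgrt held in all 17 alternatives, and B2m, H2-DMa and H2-Ab1 lost theirs only against a null of 1.5-fold. Under that null 4 MHC genes were higher and 6 lower, and 2747 genes were called in all. With 1 library left out 5 to 7 MHC genes were higher, 9 to 15 lower, and 7057 to 8571 genes were called in all. Without mutants 1 and 2 these were 6, 11 and 6873, and the lone mutant was assumed to vary like the controls. With no filter on low counts 9 were higher and 16 lower, adding Nlrc5, H2-Q6 and H2-Q7, and H2-K1, H2-K2 and H2-Q4. In that fit the median of all genes stood at 0.19 on the log2 scale, against 0.08 with library totals only. DESeq2 lost H2-Q3, limma-voom lost Tap2, library totals only lost Erap1 and H2-T22, and a filter of at least 1 CPM in 3 libraries lost Erap1 and H2-Q3.

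Some uncalled values changed sign. Tapbp stood at -0.0066 with upper quartile scaling and -0.028 with no filter, and Rfxap at -0.0125 with no filter. With libraries left out, including mutants 1 and 2 together, values ran between -0.074 and 0.109 for Tapbp, -0.037 and 0.107 for Rfxap, -0.124 and 0.127 for Tap1, -0.054 and 0.143 for Rfx5, -0.0195 and 0.237 for H2-D1, and -0.539 and 0.927 for H2-Q6. Chosen after seeing the data, leaving out libraries gave the log2 difference of H2-K1 and H2-D1 summed values between -0.337 and -0.0072. The cause was not tested.

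Same-numbered mutants and controls did not deviate together (r of -0.120, -0.0652 and -0.138 across genes), and other combinations gave -0.0145 to 0.127. Deviations from a mean of 3 libraries are tied to one another, so these values cannot show whether the numbers pair mice. The main test used no pairing. With the replicate block 5 MHC genes were higher and 12 lower, losing Tap2 and H2-T22, and 7403 genes were called in all. With 3 mice a group, p-values measure the spread between these mice only, and depth limits the precision of genes near the floor, such as H2-Q3.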
